A study of Solanum lycopersicum with 84 samples.

Results

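The response of tomato shoots to N supply was described from the 6 shoot mRNA libraries of a series with 12 mRNA libraries, by comparing the 3 +N with the 3 −N libraries over all genes with enough counts. Of 34075 genes in the count table, 20689 were tested in these libraries. A further 13386 were not, of which 8533 had no count in any shoot library. The libraries were chosen by organ and the genes by count alone. The count filter asked for enough counts in 3 libraries, which could be those of a single group. The 15 up-regulated genes without a −N count, and some with few −N counts, therefore passed it only through the +N libraries in which they were high.

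The plants were *Solanum lycopersicum* cultivar M82, a processing tomato, germinated on half-strength MS plates and grown in hydroponics in a greenhouse. At an age of 22 days they were moved to N-free medium for 4 days, and both groups therefore carry a history of N starvation. The −N plants then received fresh N-free medium, in which nitrate salts were replaced by chloride salts, and the +N plants received the growth medium with nitrate. Shoots were harvested after 6 h at a single time point, and each library was made from a pool of 4 plants. A shoot is a mixture of leaf, stem and meristem cells, so in these bulk libraries fewer cells of a type and less RNA per cell cannot be told apart.

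Nitrate that reaches the shoot is reduced to nitrite by nitrate reductase in the cytosol and to ammonium by nitrite reductase in plastids, and ammonium enters amino acids through glutamine synthetase and glutamate synthase. Nitrate also acts as a signal that changes the transcription of many genes within minutes to hours. A leaf that lacks N recovers it from its own proteins, purines and amino acids, since Rubisco and the other photosynthetic proteins hold much of the N of a leaf. Ribosomes are the other large protein investment of a growing shoot.

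The 6 libraries held 18214103 to 21901432 counts on genes. Values are CPM, that is, counts per 1000000 of the library size multiplied by a TMM factor, which was 1.105 to 1.11 in −N and 0.8996 to 0.9054 in +N. On this scale all tested genes together had a mean of 902461 CPM in −N and 1108090 CPM in +N, a ratio of 1.23. Summed levels of gene groups are to be read beside this ratio. Across genes, log CPM correlated at 0.9885 or more within a group and at 0.915 to 0.919 between groups, and the first principal component, which held 85.9% of the variance, separated the groups. Genes that mark green tissue had many reads in every library, the 8 shoot markers together 3838 to 4284 CPM in −N and 10430 to 11336 CPM in +N. Of 8 root markers, 7 had between 0 and 9 counts per group of 3 shoot libraries. The other, the nitrate transporter gene *Solyc06g074990.3*, had 3 counts in −N and 111 in +N shoots, against 37067 counts in the root libraries. The part of root tissue in these counts was not tested.

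N supply up-regulated 2771 shoot genes and down-regulated 1577 at an edgeR adjusted p of at most 0.015 and a fold change of at least 2, which is 13.4% and 7.62% of the genes tested, or 21.0% together. Without the fold-change cutoff, 12694 genes (61.4%) passed the adjusted p of 0.015, 6535 (31.6%) higher and 6159 (29.8%) lower in +N. In 2764 of the up-regulated genes the 3 +N libraries lay above the 3 −N libraries, and in 1569 of the down-regulated genes they lay below them, while 15 called genes overlapped. Over all genes tested, called or not, 36.1% had +N above −N without overlap and 35.3% had it below. Among called genes, which all had to pass the 2-fold cutoff, the median fold change was 2.80 for up-regulated and 2.55 for down-regulated genes. Changes of at least 4-fold were found for 630 up-regulated genes (22.7% of them) and 241 down-regulated genes (15.3%), and changes of at least 8-fold for 129 and 77 genes.

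The direction of the changes varied with the level of the gene. Among the 188 genes with a mean above 500 CPM, 32.4% were up-regulated and 6.91% down-regulated, and among the 2001 genes between 100 and 500 CPM the values were 28.6% and 4.05%. Among genes between 1 and 5 CPM, the shares were close to each other, 11.5% and 11%. Under 1 CPM more genes were down-regulated (9.27%) than up-regulated (7.75%). The balance also depends on the scaling. With scaling by total counts the median log2 fold change of all genes moved from −0.00818 to −0.304, and 1820 genes (8.80%) were up-regulated and 3026 (14.6%) down-regulated, so the share of up-regulated genes among the called ones went from 63.7% to 37.6%. The DESeq2 Wald test with its own size factors called 2734 genes (13.2%) up and 1548 (7.48%) down. Directions below are relative to the TMM scaling. Calls were spread over the genome, with 10.9% (chromosome 9) to 15.4% (chromosome 10) of the tested genes up-regulated and 6.34% (chromosome 11) to 8.82% (chromosome 2) down-regulated on chromosomes 1 to 12.

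**Figure D1:**
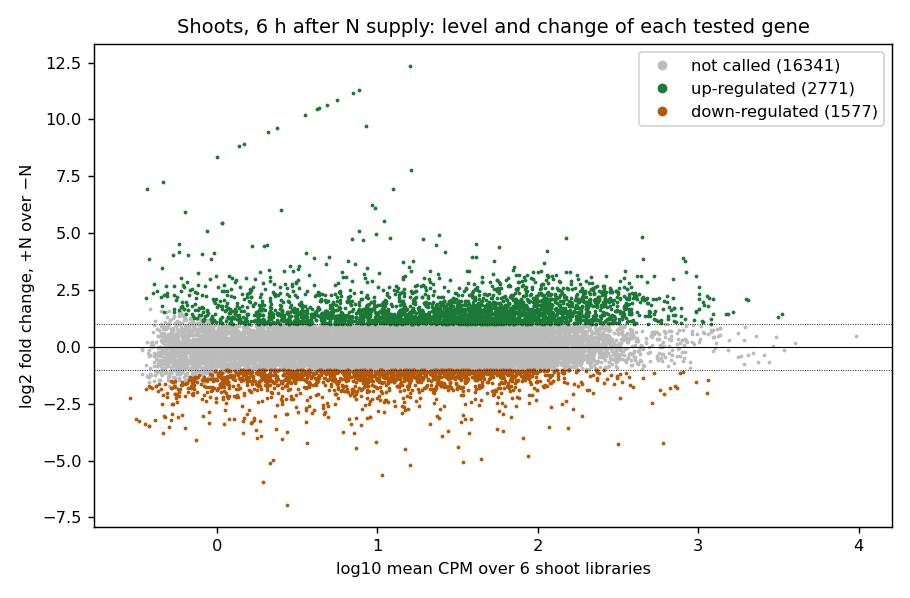
Each point is 1 of the 20689 tested genes, with the log10 of its mean CPM over the 6 shoot libraries on the x axis and its log2 fold change, +N over −N, on the y axis. Dotted lines mark the 2-fold cutoff; the 2771 up-regulated genes (green) extend to higher levels than the 1577 down-regulated ones (brown), and the points above a log2 fold change of 8 include genes without a count in −N, whose fitted values depend on the prior count.

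Gene groups were formed from the short descriptions and Arabidopsis matches that the study attached to its gene lists. Such a description was at hand for 3382 of the tested genes. These lists hold genes with changed histone marks in either organ, genes that responded in roots and a set of regulators, so described genes are not a random sample. Of the 3382, 696 (20.6%) were up-regulated and 568 (16.8%) down-regulated in shoots, and the counts of each group below are to be read beside these shares. Over all 20689 genes the median log2 fold change was −0.00818.

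**Figure D2:**
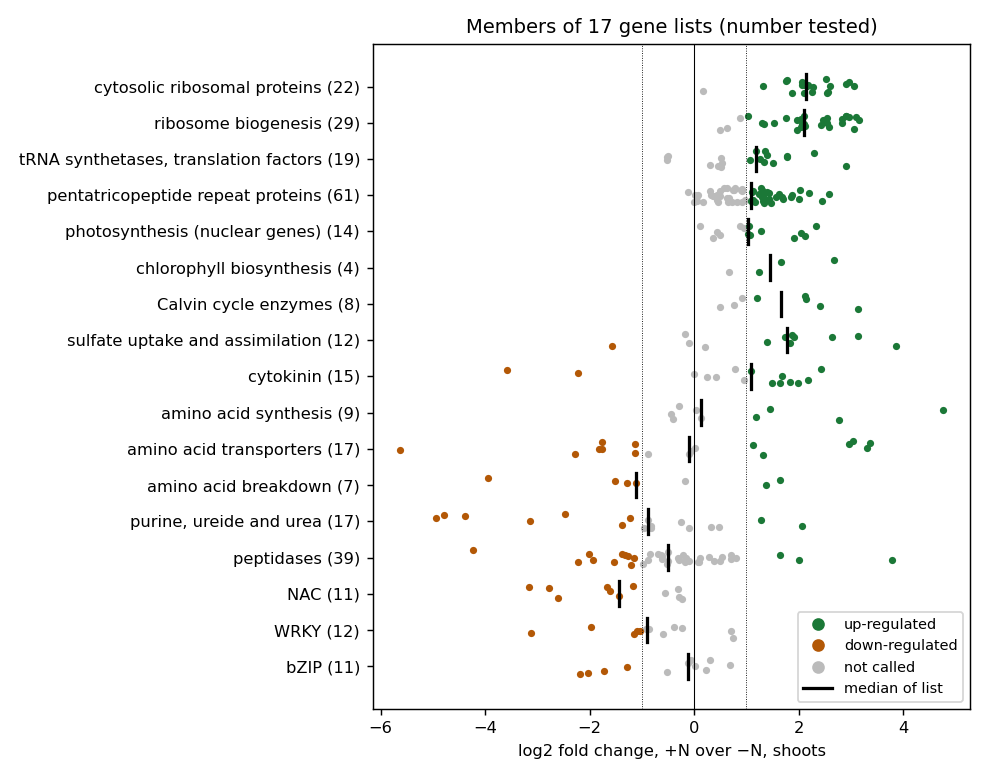
Each point is a gene of 1 of 17 groups, placed by its log2 fold change in shoots, +N over −N, with green for up-regulated, brown for down-regulated and grey for genes not called; black bars are group medians and numbers in brackets are the genes tested. Ribosomal protein and ribosome biogenesis genes have medians of 2.14 and 2.10, and none of the NAC, WRKY or bZIP genes shown was up-regulated.

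Among the largest falls were those of genes for the recovery of N from proteins, purines, urea and amino acids. *Solyc08g065610.3*, a vacuolar-processing enzyme gene matched to Arabidopsis gamma-VPE, a vacuolar protease that matures other vacuolar proteins, had 1355, 1098 and 987 CPM in the −N libraries and 57.2, 64.8 and 61.7 CPM in the +N libraries. This is a fall from 1147 ± 189 to 61.2 ± 3.80 CPM (SD, n = 3), or 18.7-fold (log2 fold change −4.23, standard error 0.094, edgeR adjusted p = 1.06e-17). The groups were far apart, and the −N libraries varied more among themselves than the +N libraries did. Papain-like cysteine protease genes were among the most abundant transcripts of starved shoots. *Solyc12g088670.2*, matched to RD21, had 2032, 1770 and 1639 CPM in −N and 424, 473 and 446 CPM in +N (log2 fold change −2.02, standard error 0.066, edgeR adjusted p = 1.88e-15). *Solyc04g080960.4*, matched to RD19, had 1601, 1359 and 1346 CPM in −N and 476, 515 and 500.2 CPM in +N (log2 fold change −1.53, standard error 0.060, edgeR adjusted p = 3.31e-14). For both genes the groups did not overlap. Of 39 tested peptidase genes, 10 fell and 3 rose, with a median log2 fold change of −0.504. The 39 genes together took 6843 ± 559 CPM in −N and 2697 ± 93.4 CPM in +N. The 3 that rose are neighbouring aspartyl protease genes, of which *Solyc01g080020.2* changed most, from 7.20 to 100.03 CPM (log2 fold change 3.79, edgeR adjusted p = 1.10e-15), and reads shared between such copies may have been counted for either.

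Pyruvate, phosphate dikinase interconverts pyruvate and phosphoenolpyruvate and is known in Arabidopsis for its part in N export from ageing leaves. Its gene *Solyc01g080460.3* had 631, 571 and 588 CPM in −N and 28.5, 32.2 and 32.2 CPM in +N. It was 19.3-fold lower in +N (log2 fold change −4.27, standard error 0.064, edgeR adjusted p = 1.44e-19), and the groups did not overlap. In roots this gene had 2.30 CPM in −N and 1.8 CPM in +N, scaled over all 12 mRNA libraries. In the amino acid breakdown group, 4 of 7 tested genes fell and 2 rose. Among those that rose, the glutamate decarboxylase gene *Solyc03g098240.3* went from 4.84 to 12.5 CPM (log2 fold change 1.37, edgeR adjusted p = 2.82e-08). The proline dehydrogenase genes *Solyc02g089620.3* and *Solyc02g089630.3*, for the first step of proline degradation, fell from 438 ± 41.3 to 181 ± 16.8 CPM and from 47.3 ± 13.9 to 3.08 ± 0.653 CPM (log2 fold changes −1.28 and −3.94, edgeR adjusted p = 4.28e-12 and 3.06e-12). The P protein gene of glycine decarboxylase, *Solyc08g065220.3*, a photorespiratory enzyme, fell from 1095 ± 26.7 to 508.5 ± 29.0 CPM. The arginase gene *Solyc01g091170.3* fell from 21.6 ± 6.88 to 7.59 ± 1.09 CPM. The asparaginase gene *Solyc04g078460.3*, whose enzyme releases ammonium from asparagine, had 146, 138 and 148 CPM in −N and 31.4, 36.6 and 31.6 CPM in +N (log2 fold change −2.11, edgeR adjusted p = 9.65e-16). *Solyc12g006470.2*, matched to the GABA transaminase POP2, fell from 1040.0 ± 52.5 to 301 ± 28.7 CPM (log2 fold change −1.79, standard error 0.062, edgeR adjusted p = 4.25e-15).

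Purines are broken down in plants to allantoin, which allantoinase opens on the way to ammonium. The allantoinase gene *Solyc02g078400.3* had 178, 165 and 157 CPM in −N and 4.50, 6.74 and 6.80 CPM in +N. This was 27.7-fold lower (log2 fold change −4.79, standard error 0.099, edgeR adjusted p = 5.50e-18). *DUR3* (*Solyc08g075570.4*), a high-affinity urea transporter gene, had 61.3, 60.9 and 59.9 CPM in −N and 3.28, 3.03 and 2.37 CPM in +N (log2 fold change −4.38, standard error 0.10, edgeR adjusted p = 1.68e-17). The purine permease gene *Solyc02g071090.3* fell from 86.2 ± 7.79 to 2.74 ± 1.25 CPM, or 31.4-fold, and the ureide permease gene *Solyc01g010290.4* from 102 ± 3.01 to 18.3 ± 1.66 CPM. Over the 17 tested genes of purines, ureides and urea, 7 fell and 2 rose, with a median log2 fold change of −0.886. With scaling by total counts 11 of them fell and 1 rose. The genes that rose were *Solyc05g012325.1*, another ureide permease gene (12.6 to 30.5 CPM), and *Solyc08g077380.4*, another purine permease gene (1.71 to 7.13 CPM). The former rise did not reach 2-fold with total counts (log2 fold change 0.98).

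**Figure D3:**
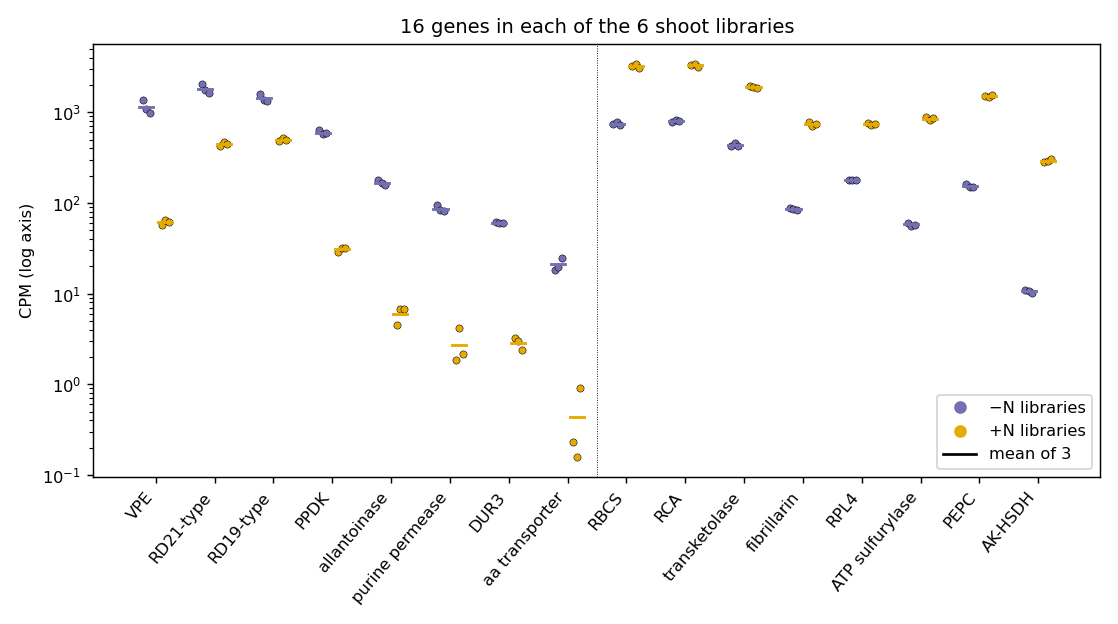
CPM on a log axis for 16 genes in each of the 6 shoot libraries (points: purple −N, yellow +N; bars: mean of 3). The 8 genes left of the dotted line were lower in every +N library, from VPE (vacuolar-processing enzyme, 1147 to 61.2 CPM) to the amino acid transporter *Solyc09g098380.3* (21.0 to 0.434 CPM); the 8 on the right were higher in every +N library. RBCS is the Rubisco small subunit, RCA Rubisco activase, RPL4 ribosomal protein L4, PEPC phosphoenolpyruvate carboxylase and AK-HSDH aspartokinase-homoserine dehydrogenase.

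Amino acid transporter genes moved both ways, 6 up and 7 down of 17 tested. *Solyc09g098380.3* had the largest fall among called genes with a mean of at least 5 CPM, from 18.4, 19.8 and 24.8 CPM in −N to 0.234, 0.157 and 0.910 CPM in +N (log2 fold change −5.63, standard error 0.27, edgeR adjusted p = 7.45e-13). The amino acid permease gene *Solyc07g066020.2* fell from 90.2 to 25.4 CPM and the cationic amino acid transporter genes *Solyc02g070280.3* and *Solyc12g011370.3* fell from 51.5 to 15.2 and from 38.6 to 7.91 CPM. In the other direction, *Solyc05g052300.4* had 14.1, 11.5 and 11.4 CPM in −N and 132, 129.9 and 118 CPM in +N (log2 fold change 3.37, standard error 0.080, edgeR adjusted p = 2.36e-17). The adjacent genes *Solyc03g063030.4* and *Solyc03g063040.4* rose from 12.8 to 99.2 and from 4.22 to 34.7 CPM.

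Among the called nitrate transporter, NPF and ammonium transporter genes, more fell than rose. Of 26 tested nitrate transporter and NPF genes, 3 rose, 9 fell and 14 were not called (median log2 fold change −0.477), and together they had 853 ± 12.9 CPM in −N and 542 ± 14.4 CPM in +N. The 5 tested NPF genes of neighbouring loci on chromosome 5, matched to *NPF1.1* and *NPF1.2*, which in Arabidopsis take part in nitrate movement between xylem and phloem, all fell (log2 fold change −1.97 to −1.28). The most abundant, *Solyc05g005950.3*, fell from 129 ± 3.79 to 53.1 ± 2.52 CPM (edgeR adjusted p = 2.06e-13). *Solyc06g050900.3*, an *NPF5.1* type, fell from 67.0 to 18.8 CPM. Among the 3 that rose were *Solyc05g006990.3*, from 10.1 to 36.0 CPM, and *Solyc06g074990.3*, from 3 counts in −N to 111 in +N. The ammonium transporter gene *AMT1* (*Solyc09g090730.2*) had 112, 123 and 129 CPM in −N and 13.7, 16.4 and 12.4 CPM in +N (log2 fold change −3.09, standard error 0.085, edgeR adjusted p = 1.65e-16). Another ammonium transporter gene, *Solyc04g050440.3*, rose from 5.61 to 22.9 CPM. The ammonium transporter gene *Solyc10g076480.2* fell from 7.09 to 3.08 CPM, which was under the 2-fold cutoff without −N replicate 2 (log2 fold change −0.95).

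Genes that supply nitrite reductase and ferredoxin-dependent enzymes with cofactors and electrons rose with the nitrate reduction genes. Of 10 tested, 7 rose and none fell, and the 3 nitrate and nitrite reductase genes all rose. *Solyc01g086650.3*, for the methyltransferase that makes the siroheme precursor of nitrite and sulfite reductase, had 11.7 ± 1.29 CPM in −N and 216 ± 21.4 CPM in +N (log2 fold change 4.21, standard error 0.085, edgeR adjusted p = 4.47e-18). The ferredoxin gene *Solyc11g006910.3* rose from 0.441 to 14.99 CPM and the ferredoxin gene *Solyc11g068430.3* from 37.9 to 97.2 CPM. The root-type ferredoxin-NADP reductase gene *Solyc02g024050.3* rose from 77.2 to 214 CPM. In the oxidative pentose phosphate pathway, which makes NADPH, the glucose-6-phosphate dehydrogenase genes *Solyc05g015950.3* and *Solyc07g045540.4* rose from 26.7 to 157 and from 84.5 to 273 CPM, and the 6-phosphogluconate dehydrogenase gene *Solyc12g056120.1* rose from 123 to 420 CPM. The 6-phosphogluconolactonase gene *Solyc05g012110.4*, for the step between them, was not called and had 52.9 CPM in −N and 38.9 CPM in +N. The transaldolase gene *Solyc11g033288.1* (112 and 146 CPM) and the GTP cyclase gene *Solyc01g073730.4* for the molybdenum cofactor (22.4 and 41.9 CPM) did not reach the 2-fold cutoff either.

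The assimilation of ammonium needs carbon skeletons, and of 9 enzyme genes for these 2 rose and 2 fell. The phosphoenolpyruvate carboxylase gene *Solyc07g055060.3*, whose enzyme refills the citric acid cycle, had 160, 150.2 and 150.2 CPM in −N and 1506, 1485 and 1563 CPM in +N. The 9.89-fold rise (log2 fold change 3.31, standard error 0.050, edgeR adjusted p = 1.44e-19) was far beyond the spread of the replicates. A second phosphoenolpyruvate carboxylase gene, *Solyc07g062530.3*, fell from 10.01 to 2.57 CPM. The citrate synthase gene *Solyc01g073740.4* had 122 CPM in −N and 171 CPM in +N, and the NAD-dependent isocitrate dehydrogenase genes *Solyc02g082860.3* and *Solyc08g077920.3* had 11.2 and 19.9 CPM and 21.9 and 29.98 CPM, none of them called. Among the enzymes of amide amino acids, 4 of 7 rose and 1 fell. The glutamate synthase gene *Solyc03g083440.4* rose from 113 ± 4.59 to 1551 ± 236 CPM and the chloroplast glutamine synthetase gene *Solyc01g080280.3* from 467 ± 6.92 to 2003 ± 31.1 CPM (log2 fold changes 3.78 and 2.10). The fall was that of the asparaginase gene given above. Glutamate dehydrogenase (*Solyc10g078550.4*) had 115 CPM in −N and 79.4 CPM in +N and was not called.

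In amino acid synthesis, 4 of 9 tested genes rose and none fell. The bifunctional aspartokinase-homoserine dehydrogenase gene *Solyc06g064550.3*, at the entry of the pathway from aspartate to threonine and methionine, had 11.1, 10.8 and 10.3 CPM in −N and 280.1, 290.01 and 303 CPM in +N, a 27.2-fold rise (log2 fold change 4.77, standard error 0.064, edgeR adjusted p = 4.35e-20). The aspartokinase gene *Solyc01g005240.4* rose from 27.1 ± 0.904 to 184 ± 9.30 CPM, and the cystathionine gamma-synthase gene *Solyc02g067180.3*, for methionine, from 334 to 761 CPM. The latter was under 2-fold with scaling by total counts (log2 fold change 0.89). The gene of the shikimate pathway *Solyc05g050980.3* rose from 19.5 to 53.5 CPM. Others of aromatic amino acid synthesis, the chorismate synthase gene *Solyc04g009620.4* (19.6 and 16.1 CPM) and the chorismate mutase gene *Solyc11g017240.3* (20.7 and 15.2 CPM), were not called.

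Sulfate assimilation, which delivers cysteine to protein synthesis, rose as a group. Of 12 tested genes 8 rose and 1 fell, the median log2 fold change was 1.78, and the summed level went from 1374 ± 54.7 to 5758 ± 181 CPM. The ATP sulfurylase gene *Solyc03g005260.3*, for the activation of sulfate, had 60.5, 56.2 and 57.7 CPM in −N and 882, 815 and 854 CPM in +N (log2 fold change 3.87, standard error 0.055, edgeR adjusted p = 7.12e-20). The other ATP sulfurylase gene, *Solyc09g082860.3*, matched to the same Arabidopsis gene, was not called, with means of 140.0 and 161 CPM in −N and +N. The adenylylsulfate reductase gene *Solyc02g080640.4* had 99.2, 81.4 and 89.0 CPM in −N and 843, 792 and 725 CPM in +N (log2 fold change 3.13, edgeR adjusted p = 1.15e-17). The sulfite reductase gene *Solyc11g065620.2* rose from 202 to 759 CPM. The cysteine synthase genes *Solyc08g014340.3* and *Solyc09g082060.3* rose from 279 to 1733 and from 386 to 1009.9 CPM, while *Solyc10g012370.3* had 30.2 CPM in −N and 26.5 CPM in +N. Among sulfate transporter genes, *Solyc04g054730.3* rose (20.6 to 75.4 CPM), *Solyc09g082550.3* fell (16.4 to 5.51 CPM) and *Solyc05g007980.3* was not called (68.0 and 63.5 CPM).

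The described nuclear genes for photosynthetic proteins were higher in +N at 6 h, and members without a description were not grouped. Of 14 tested, 8 were up-regulated and none down-regulated, with a median log2 fold change of 1.04. The sum over these genes went from 5432 ± 337 to 13371 ± 525 CPM. The Rubisco small subunit gene *Solyc02g063150.3* had 747, 772 and 723 CPM in −N and 3205, 3434 and 3095 CPM in +N (log2 fold change 2.12, standard error 0.049, edgeR adjusted p = 1.50e-17). The Rubisco activase gene *Solyc10g086580.2* had 785, 822 and 793 CPM in −N and 3316, 3415 and 3151 CPM in +N (log2 fold change 2.04, standard error 0.046, edgeR adjusted p = 1.17e-17). For both genes the lowest +N library was far above the highest −N library. Chlorophyll a-b binding protein genes differed among themselves. *Solyc02g070980.1* rose from 143 ± 10.8 to 714 ± 105 CPM, whereas *Solyc03g005770.3*, matched to the same Arabidopsis gene, had 1052 ± 140 and 1422 ± 27.2 CPM and a log2 fold change of 0.44. *Solyc12g006140.2* had 49.8 and 53.5 CPM. These are members of a family of similar genes, and reads that fit several of them could have been counted for either.

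Several of the photosynthesis calls lay just over the 2-fold cutoff. With total counts, 4 of the 14 genes were called in place of 8, all higher. The genes *Solyc06g060340.3* (photosystem II 22 kDa protein, log2 fold change 1.04), *Solyc08g013670.3* and *Solyc05g150152.1* (photosystem I subunit N, 1.06 and 1.04) fell under the cutoff without −N replicate 3 or +N replicate 2, with values down to 0.90. In the Calvin cycle, 5 of 8 tested genes rose and none fell (median log2 fold change 1.67). The chloroplast aldolase gene *Solyc01g110360.3* had 101, 120 and 106 CPM in −N and 940, 949 and 976 CPM in +N (log2 fold change 3.13, standard error 0.060, edgeR adjusted p = 3.14e-18). The transketolase gene *Solyc10g018300.3* rose from 436 ± 17.2 to 1905 ± 43.5 CPM, and the glyceraldehyde-3-phosphate dehydrogenase genes *Solyc12g094640.3* and *Solyc04g009030.3* rose from 88.9 to 471 and from 725 to 1671 CPM, the last under 2-fold with total counts (log2 fold change 0.91). Of 4 chlorophyll synthesis genes, 3 rose. The light-dependent protochlorophyllide oxidoreductase gene *Solyc12g013710.2* rose from 69.4 ± 9.70 to 440.5 ± 26.9 CPM, the cyclase gene *Solyc10g077040.2* from 179 ± 20.6 to 564 ± 13.2 CPM and the magnesium chelatase gene *Solyc10g008740.3* from 199 to 470.2 CPM, the last again under 2-fold with total counts (0.94). The large chelatase subunit gene *Solyc04g015750.3* had 429 and 681 CPM and was not called.

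The described genes for making ribosomes rose nearly throughout, and members without a description were not grouped. Of 22 tested cytosolic ribosomal protein genes, 21 rose and none fell, with a median log2 fold change of 2.14 and a range of 0.161 to 3.06. Their sum was 1880, 1941 and 1999 CPM in the −N libraries and 8422, 8364 and 8231 CPM in the +N libraries. The ribosomal protein L4 gene *Solyc09g007250.4* had 177, 180.4 and 179 CPM in −N and 767, 730 and 736 CPM in +N (log2 fold change 2.06, standard error 0.047, edgeR adjusted p = 1.27e-17). *Solyc01g099900.4* (L18) rose from 303 to 1018 CPM and *Solyc06g007670.4* (L5) from 175 to 778 CPM. Ribosomal proteins are encoded by small families of close copies, so the separate values of copies are uncertain. Of 29 tested genes for ribosome biogenesis, the processing and assembly of ribosomal RNA in the nucleolus, 26 rose and none fell (median log2 fold change 2.10). Fibrillarin (*Solyc03g025270.3*), which methylates ribosomal RNA, had 88.4, 86.3 and 84.1 CPM in −N and 778, 713 and 733 CPM in +N (log2 fold change 3.10, standard error 0.053, edgeR adjusted p = 7.83e-19). *NOP58* (*Solyc09g083080.4*), a partner of fibrillarin, rose from 92.2 ± 8.89 to 652 ± 13.8 CPM. *Solyc09g011420.3*, of the L7Ae family, rose from 47.1 ± 0.640 to 355 ± 13.1 CPM.

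Of 4 genes for proteins of plastid and mitochondrial ribosomes none was called. *Solyc01g057830.3* (30S S1) had 197 and 311 CPM, *Solyc07g062190.4* (50S L13) had 137 and 237 CPM, and the 4 log2 fold changes lay between 0.418 and 0.793. All 4 genes had an edgeR adjusted p under 0.015 and a sign toward +N. Their change was not tested against that of the cytosolic proteins. Of 19 tRNA synthetase and translation factor genes 11 rose and none fell (median 1.18). The plastid elongation factor Tu gene *Solyc06g071790.3* rose from 370 ± 5.79 to 933 ± 4.65 CPM, and the asparaginyl-tRNA synthetase gene *Solyc10g080710.2* from 163 to 341 CPM (under 2-fold with total counts, log2 fold change 0.77). Of 61 pentatricopeptide repeat genes, whose products process the RNA of organelles, 31 rose and none fell. Their median log2 fold change was 1.08, close to the cutoff, and with total counts 21 were called. Only 2 of the 61 had a negative log2 fold change. *Solyc01g103160.3* rose from 34.8 ± 2.32 to 94.4 ± 5.23 CPM. 2 chaperone genes rose, the mitochondrial HSP70 type *Solyc01g106210.3* from 103 to 406 CPM and the HSP90 type *Solyc07g047790.3* from 63.6 to 406 CPM, while 5 of the 14 tested heat shock genes fell.

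Cytokinins report N status to the shoot, and type-A response regulators are their early targets. All 6 tested type-A response regulator genes rose, with log2 fold changes of 1.64 to 2.42 and a summed level of 58.9 ± 7.80 CPM in −N and 259 ± 26.1 CPM in +N. *Solyc05g006420.3* had 30.8, 22.2 and 26.3 CPM in −N and 156, 141 and 128 CPM in +N (log2 fold change 2.42, standard error 0.092, edgeR adjusted p = 1.97e-14). *Solyc10g079600.2* rose from 17.3 to 61.8 CPM. Over the whole cytokinin list of 15 tested genes, 8 rose and 2 fell. The falls were *Solyc05g014260.3*, matched to the type-B regulator ARR11, a DNA-binding activator, with 285, 278 and 295 CPM in −N and 20.6, 24.9 and 25.9 CPM in +N (log2 fold change −3.59, standard error 0.071, edgeR adjusted p = 3.74e-18), and the cytokinin-activating enzyme gene *Solyc04g081290.3* (26.4 to 5.62 CPM). Another type-B gene, *Solyc04g008050.4*, matched to ARR1, rose from 24.0 to 67.7 CPM. Of 9 tested CBL-interacting kinase genes, 1 rose. *Solyc06g007440.4*, matched to Arabidopsis CIPK11, had 3.08, 3.49 and 3.72 CPM in −N and 77.6, 78.7 and 80.0 CPM in +N, 23.0-fold higher (log2 fold change 4.52, standard error 0.087, edgeR adjusted p = 3.24e-18). *Solyc06g068450.3* fell from 41.9 to 20.9 CPM, on the 2-fold cutoff (log2 fold change −1.0), and was not called without −N replicate 3 or +N replicate 2 (down to −0.97).

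Among the described genes of the NAC, WRKY and bZIP families of regulators, calls were falls only. Members without a description were not assigned to a family. Of 11 tested NAC genes 7 fell and none rose (median log2 fold change −1.43), all 11 with a negative sign. *Solyc05g007770.3*, matched to Arabidopsis NAP, a regulator of leaf senescence, had 43.6, 49.8 and 41.1 CPM in −N and 5.97, 8.51 and 7.52 CPM in +N (log2 fold change −2.61, standard error 0.11, edgeR adjusted p = 1.34e-13). *Solyc10g055760.2* fell from 26.1 ± 7.64 to 3.80 ± 0.450 CPM and *Solyc07g066330.3* from 16.05 to 5.23 CPM. Of 12 WRKY genes 5 fell and of 11 bZIP genes 4 fell. The most abundant of each were *Solyc09g015770.3* (42.9 to 20.1 CPM) and *Solyc01g109880.3* (165 to 49.7 CPM). *Solyc09g015770.3* was not called without −N replicate 3 (log2 fold change −1.0). *Solyc06g071820.3*, a BTB-TAZ gene, fell from 452 ± 13.6 to 145 ± 8.66 CPM, while *Solyc03g111710.3* of the same family rose from 36.4 to 90.8 CPM. The ninja-family gene *Solyc04g005380.3*, matched to a regulator of abscisic acid signalling, had 5.08, 15.5 and 21.8 CPM in −N and 0.702, 0.470 and 0.789 CPM in +N (log2 fold change −4.45, standard error 0.46, edgeR adjusted p = 7.33e-08). Its −N libraries were widely spread, yet all lay above the +N libraries. Genes described by senescence or autophagy were mixed, 4 up and 3 down of 16, and with total counts 6 fell. The S40 senescence regulator genes moved both ways. *Solyc02g080510.1* fell from 121 to 44.6 CPM and *Solyc11g069450.1* rose from 9.93 to 51.3 CPM.

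Among the largest relative rises were those of genes for glutaredoxins, small redox proteins of which some of the CC type respond to nitrate in Arabidopsis. Of 18 tested, 13 rose and 3 fell. Of those that rose, 9 had no −N count, and *Solyc04g011880.1* and *Solyc06g054570.1* had 10 and 1. These genes passed the count filter only through the +N libraries and could be called only as up-regulated. The counts, medians and stretch given here for glutaredoxins depend on this filter. A stretch of 13 tested loci adjacent in number on chromosome 4, from *Solyc04g011700.2* to *Solyc04g011880.1*, was up-regulated throughout, and 10 of its genes are described as glutaredoxins. This was the longest of 29 stretches of at least 4 adjacent genes called in the same direction, 22 of them up. *Solyc04g011840.1* was without counts in all −N libraries and had 33.6, 26.5 and 35.2 CPM in the +N libraries. Set against a floor of 3 counts for the −N libraries together, its level was at least 743-fold higher in +N. *Solyc04g011830.1* and *Solyc04g011860.1*, also without a −N count, were at least 358-fold and at least 328-fold higher, at 15.3 ± 1.85 and 14.0 ± 2.10 CPM in +N. *Solyc04g011880.1* had 10 counts in −N and 1711 in +N, or 0.143 ± 0.0718 and 32.5 ± 2.21 CPM (log2 fold change 7.78, standard error 0.20, edgeR adjusted p = 4.99e-17). On chromosome 6, the glutaredoxin gene *Solyc06g054570.1* had 1 count in −N and 896 in +N, or 1201 times as many after scaling (95% interval for counting error, 215 to 47502). The members of the stretch have short, similar coding regions, and reads that fit several of them may have been assigned to either or left out, so their separate values are uncertain. The sum of the 10 glutaredoxin genes was 0.083 to 0.223 CPM in the −N and 122 to 139 CPM in the +N libraries.

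Over the whole glutaredoxin list the fitted median log2 fold change was 9.12, and it was 6.71 with the 9 genes that had no −N count set to their lower bound. The 3 that fell lie at other loci. *Solyc11g069940.1* had 107, 99.8 and 102 CPM in −N and 9.07, 7.62 and 8.43 CPM in +N (log2 fold change −3.62, standard error 0.078, edgeR adjusted p = 8.09e-18), and *Solyc08g062970.1*, matched to the same Arabidopsis gene, fell from 38.4 to 11.6 CPM. *Solyc10g008930.1* (C9 type) fell from 4.47 to 0.908 CPM. In all, 15 up-regulated genes were without a −N count, while 0 down-regulated genes were without a +N count. Beside the chromosome 4 glutaredoxins these included *Solyc03g078620.1*, described as a C2 domain protein, with 11.7, 10.7 and 11.3 CPM in +N and at least 265-fold higher there. Other genes with little expression in −N were *Solyc05g005870.3*, of the WAT1 family of transporters (0.471 to 21.7 CPM), and *Solyc10g050510.1*, *Solyc12g006760.1* and *Solyc12g006770.1*, described as unknown proteins (0.194 to 24.7, 0.262 to 19.1 and 0.240 to 18.3 CPM).

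**Figure D4:**
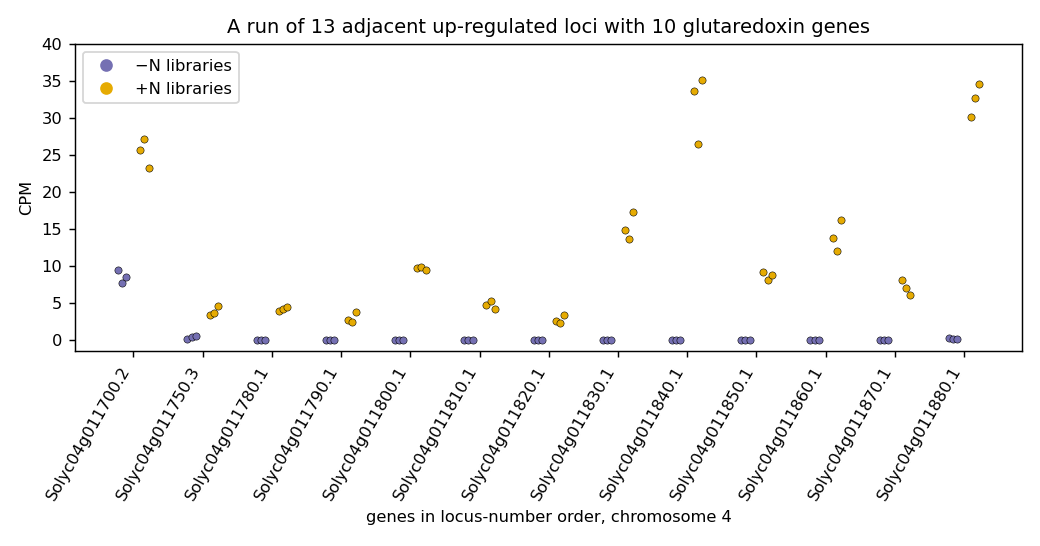
CPM in each shoot library (purple −N, yellow +N) for the 13 tested genes of the stretch on chromosome 4, in the order of their locus numbers. Apart from *Solyc04g011700.2* (mean 8.58 CPM in −N, 25.3 in +N), the −N points lie at or near 0, and the highest +N points belong to *Solyc04g011840.1* and *Solyc04g011880.1* (31.8 and 32.5 CPM on average).

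Other adjacent genes moved together as well. On chromosome 2, 7 tested neighbours from *Solyc02g070940.1* to *Solyc02g071010.1* rose, with log2 fold changes of 1.04 to 3.08. The one described, *Solyc02g070980.1*, is the chlorophyll a-b binding protein gene given above. The last of them, *Solyc02g071010.1*, was under the cutoff with total counts (0.75) and without +N replicate 2 (0.95). On chromosome 5, 6 neighbours from *Solyc05g005910.4* to *Solyc05g005960.3* fell, among them 4 of the 5 NPF genes given above. The fifth, *Solyc05g005990.3*, lies outside this stretch. A further 6 on chromosome 3 (*Solyc03g078720.4* to *Solyc03g078800.2*, of which the described ones are glycosyltransferases) fell from low levels, 1.59 to 3.86 CPM in −N, and *Solyc03g078783.1* and *Solyc03g078800.2* among them lost their call in at least 1 fit without a library. On chromosome 10, 6 neighbours rose from *Solyc10g008120.4* to *Solyc10g008200.4*. They include *uniform ripening* (*Solyc10g008160.3*), a GLK regulator of chloroplast development in tomato, which rose from 0.706 to 2.12 CPM, and *Solyc10g008130.3*, which was under 2-fold with total counts (0.92).

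Of the 15 genes with the largest share of counts 3 were called, all up, beside 21.0% of all genes tested, and beside 61 up and 13 down of the 188 genes above 500 CPM. The first, *Solyc07g064160.3*, took a mean of 0.953% of the counts and had 8125 ± 464 CPM in −N and 11153 ± 317 CPM in +N, a log2 fold change of 0.46. Its function is not described in the sources used here. Of the described ones, the germin-like protein gene *Solyc07g041720.1* had 2022, 1919 and 1797 CPM in −N and 2632, 2704 and 2639 CPM in +N (log2 fold change 0.47), and the catalase gene *Solyc12g094620.3* had 2419 ± 104 and 1994 ± 96.9 CPM (log2 fold change −0.28). The 3 called were Rubisco activase, *Solyc03g034220.3* (1800.5 to 4840.0 CPM) and *Solyc01g109660.2* (1809.6 to 4507 CPM), the last pair without a description. By the gain in CPM, these were followed or accompanied by the Rubisco small subunit, the tonoplast aquaporin gene *TIP1.1* (*Solyc06g074820.3*, 848 ± 49.4 to 2423 ± 83.8 CPM), chloroplast glutamine synthetase, the RNA-binding protein gene *Solyc10g086150.2* (197 ± 5.56 to 1731 ± 36.2 CPM), *Solyc05g054580.3* (404 to 1875 CPM), transketolase and a cysteine synthase. The largest losses in CPM were those of the RD21-type and VPE protease genes. They were followed by *Solyc11g069090.2* (1692 to 613 CPM, not described), the RD19-type gene, *Solyc11g006460.3* (1145 to 325 CPM, not described), the RNA helicase gene *Solyc12g035130.2* (1107 ± 17.9 to 333 ± 1.44 CPM) and the dioxygenase gene *Solyc07g043420.3*, matched to DMR6 (986 ± 41.3 to 235 ± 42.0 CPM). The list ends with *POP2*, the cellulose synthase-like gene *Solyc07g043390.4* (869 ± 45.3 to 156 ± 24.7 CPM) and *Solyc01g079880.3* (912 to 243 CPM, not described).

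Of 19 phosphate starvation and transport genes 2 rose and 2 fell (median −0.121). Of 12 genes for starch and trehalose phosphate 2 rose and 3 fell, the largest in reads being the ADP-glucose pyrophosphorylase gene *Solyc01g109790.3*, which fell from 340.4 ± 30.1 to 125 ± 3.90 CPM. Of 11 cell cycle and histone genes 4 rose, among them cyclin D3 (*Solyc04g078470.3*, 14.9 to 41.1 CPM) and a histone H4 gene (*Solyc05g054610.1*, 6.87 to 26.5 CPM), and 2 fell, a cyclin A1 gene (*Solyc01g044558.1*, 26.7 to 11.9 CPM) and a linker histone gene (*Solyc02g084240.3*, 94.7 to 23.1 CPM). Of 6 phenylpropanoid and flavonoid genes 3 fell, including *chalcone synthase 2* (*Solyc05g053550.3*), with 326, 288 and 246 CPM in −N and 94.0, 94.1 and 87.5 CPM in +N. Proteinase inhibitor genes, which respond to wounding in tomato, had 38.4 to 41.5 CPM in sum in −N and 47.3 to 52.7 CPM in +N, with 2 of 8 up. The ratio of the mean sums was 1.26, beside 1.23 for all genes tested. The median log2 fold change of the 8 genes was −0.164.

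Genes with changed histone marks in shoots were described beside their transcripts. Over all genes tested, 13.4% were up-regulated and 7.62% down-regulated. Of 329 tested genes that the study lists with increased H3K27ac over the gene, 162 (49.2%) were up-regulated and 11 down-regulated, and their median log2 fold change was 0.986. Of 258 with decreased H3K27ac, 30 were up-regulated and 111 (43.0%) down-regulated, with a median of −0.843. H3K4me3 and H3K36me3, like H3K27ac, are found on active genes. Of 36 tested genes with increased H3K4me3 over the gene 25 were up-regulated and 1 down-regulated, and of 154 with decreased H3K4me3 the counts were 9 and 71. Of 49 with increased H3K36me3 39 were up-regulated and 0 down-regulated, and of 19 with decreased H3K36me3 the counts were 0 and 7. H3K27me3 and H3K9me2 are found on silent genes. Of 51 with increased H3K27me3 34 were up-regulated and 1 down-regulated, with a median of 1.43. Of 399 genes listed with decreased H3K9me2 over the gene, only 50 had enough counts to be tested. Of these 50, 13 (26%) were up-regulated and 2 (4%) down-regulated (median 0.128). Of 313 listed with increased H3K9me2, 146 were tested, and the counts were 12 (8.22%) and 4 (2.74%), with a median of 0.0773. The paper found this mark mostly at unexpressed genes and reports no significant overlap between its changes and the DEGs. These lists come from libraries of the same experiment and were not tested here.

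The changes in shoots were compared with those in roots for the groups above by the N by organ interaction, the change in shoots minus that in roots, in an edgeR fit of all 12 libraries. Over 22483 genes, 40.8% passed an adjusted p of 0.015, 19.3% with the shoot change above the root change and 21.5% below it. The genes named here were chosen after their values were seen. Of 22 cytosolic ribosomal protein genes, 21 (95.5%) had a higher change in shoots and none a lower one, with median log2 fold changes of 2.05 in shoots and 0.870 in roots. For ribosome biogenesis it was 24 of 29 (82.8%) against 1, with medians of 2.01 and 1.2. The interaction was 1.04 for the ribosomal protein L4 gene (standard error 0.059, edgeR adjusted p = 6.31e-12) and 1.82 for fibrillarin (standard error 0.068, edgeR adjusted p = 1.62e-14). Photosynthesis genes had 6 of 14 with a higher change in shoots and 1 with a lower one, but all 14 had low levels in roots. Cofactor and reductant genes of nitrate reduction went the other way, with 8 of 10 having a lower change in shoots than in roots and none a higher one. Described genes include those listed for a response in roots and those with a changed histone mark in either organ. A large change in roots or in shoots could therefore itself bring a gene into any of these groups, the ribosomal ones included. The shares of 19.3% and 21.5% are over all genes and not over described ones. Of 18 senescence and autophagy genes, 7 had the lower change in shoots and none the higher.

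Several single genes are given as examples. The phosphoenolpyruvate carboxylase gene *Solyc07g055060.3* rose less in roots, from 59.9 to 103 CPM (interaction 2.43, standard error 0.082, edgeR adjusted p = 4.02e-15). The aspartokinase-homoserine dehydrogenase gene *Solyc06g064550.3*, the ATP sulfurylase gene *Solyc03g005260.3* and the kinase gene *Solyc06g007440.4* also rose more in shoots, by 2.75 (standard error 0.098, edgeR adjusted p = 8.10e-15), 2.24 (standard error 0.095, edgeR adjusted p = 1.10e-13) and 2.59 (standard error 0.18, edgeR adjusted p = 1.12e-10). The fall of allantoinase was deeper in shoots by −3.49 (standard error 0.16, edgeR adjusted p = 3.01e-13), as was that of the ARR11-type gene (−1.89, standard error 0.10, edgeR adjusted p = 2.74e-12). The bZIP gene *Solyc04g054320.4*, matched to TGA1, an early nitrate-response regulator in Arabidopsis roots, fell in shoots from 77.8 ± 2.78 to 19.0 ± 0.949 CPM. In roots it had 146 CPM in −N and 226 CPM in +N, scaled over all 12 libraries. Its interaction was −2.75 (standard error 0.081, edgeR adjusted p = 6.11e-16).

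**Figure D5:**
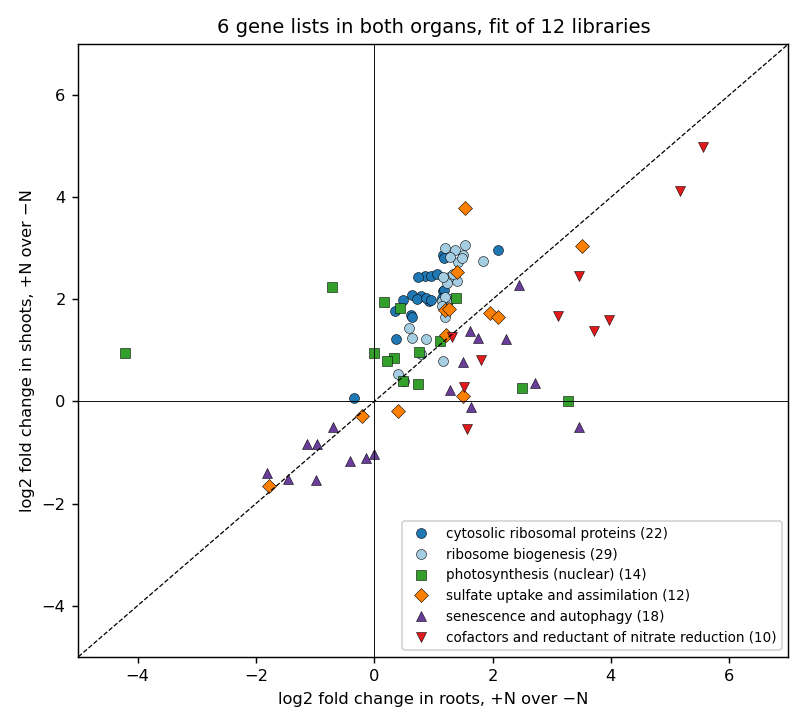
Log2 fold changes, +N over −N, in roots (x axis) and shoots (y axis) for the genes of 6 groups in the fit of 12 libraries, each point a gene; the dashed line marks equal change. Ribosomal protein and ribosome biogenesis genes (blue, medians 2.05 and 2.01 in shoots against 0.870 and 1.2 in roots) mostly lie above the line, while the cofactor and reductant genes of nitrate reduction (red) mostly lie below it.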

How the data were processed

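Counts per gene are the values the authors deposited, unnormalized, in 1 table of 34075 genes. Per the paper's methods, reads were trimmed with Cutadapt, mapped with TopHat2 to build 4.0 of the tomato genome and counted with htseq-count; not given in the sources used here were versions, strand setting and how reads with several matches were counted. All 12 mRNA columns were mapped to samples by name. Depth was 18214103 to 21901432 counts per shoot library. Floors and intervals cover counting error only.

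The 6 shoot libraries were fitted in R 4.3.3 with edgeR 4.0.16 (TMM, filterByExpr with a minimum count of 10 and total of 15, quasi-likelihood test, Benjamini-Hochberg adjustment over all genes tested), which was checked on simulated counts. Few genes were changed in the simulated counts, as many up as down, so the check did not cover the choice of scaling. CPM are counts scaled by the TMM-corrected library size, with ± for the SD of 3 libraries. Standard errors were derived from the fold change and its F value. With 3 against 3, an exact permutation test cannot give a p below 0.1. The labels call the libraries replicates of pooled plants. DESeq2 1.42.0 was an alternative, with others of scaling, filter, thresholds, block and left-out libraries.

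Genes and gene groups were chosen with earlier results of these data known. The rule for named genes took the 10 largest described rises and falls of called genes with at least 5 CPM and no overlap between groups, plus the 3 largest of all; the 15 most abundant genes; the 10 largest gains and losses in CPM; members of groups of up to 15 genes and, for larger groups, the 3 most abundant called members in each direction; genes without a count in a group; and the 5 longest stretches of adjacent called genes. The groups of peptidases, of purine, ureide and urea genes, of amino acid breakdown and synthesis and of the Calvin cycle, and genes named outside the rule, were chosen after their values were seen. Of the gene identifiers, 0 matched the reference gene table, so no sequence or coordinate is given, and descriptions come from the study's gene lists.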

Additional observations from a re-analysis of the deposited data

Results flagged for a closer look

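The results below were set apart because the change with N supply differed between organs, tested as the interaction in the edgeR fit of all 12 libraries (log2, shoots minus roots), and each passed an adjusted p of 0.015 in that fit and in every alternative run for it. The genes were chosen after their values were seen, from 9177 genes that passed, so they are examples. The interaction was above 0 for phosphoenolpyruvate carboxylase (*Solyc07g055060.3*, 2.43), aspartokinase-homoserine dehydrogenase (*Solyc06g064550.3*, 2.75), ATP sulfurylase (*Solyc03g005260.3*, 2.24), the CIPK11-type kinase (*Solyc06g007440.4*, 2.59), asparagine synthetase (*Solyc04g055200.3*, 1.86), transketolase (*Solyc10g018300.3*, 1.43), fibrillarin (*Solyc03g025270.3*, 1.82) and ribosomal protein L4 (*Solyc09g007250.4*, 1.04). It was below 0 for allantoinase (*Solyc02g078400.3*, −3.49) and the ARR11-type regulator (*Solyc05g014260.3*, −1.89).

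In 4 further genes the fold changes had opposite signs. The NLP gene *Solyc01g112190.3* (5.87) and the pyrophosphatase gene *Solyc03g121420.4* (2.55) rose in shoots and fell in roots, the latter from 13.9 to 35.0 CPM in shoots and from 3.34 to 1.35 CPM in roots. The HSP70-type gene *Solyc04g011440.4* (−3.36) fell in shoots from 11.8 to 4.32 CPM and rose in roots from 9.80 to 34.6 CPM. The TGA1-type gene *Solyc04g054320.4* (−2.75) fell in shoots, while its root log2 fold change was 0.63.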

How the results depend on the processing

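Of the alternatives, 2 moved the counts of called genes by more than 1.5 times. With a 1.5-fold threshold 8132 genes were called, 4584 up (22.2%) and 3548 down (17.1%). With total counts in place of TMM 1820 were up-regulated and 3026 down-regulated, which kept 65.7% of the rises and 100% of the falls and turned 0 around. The DESeq2 Wald test called 2734 (13.2%) and 1548 (7.48%). Without 1 library at a time the total was 4217 to 4352, with 2711 to 2783 up and 1506 to 1599 down, and the organ interaction passed for 8493 to 8972 genes against 9177. Among the 301 genes the naming rule took, 216 were called, of which 12 lost their call in at least 1 fit without a library and 15 with total counts, and 0 reversed under any alternative. The gene groups, without those chosen after their values were seen, held 246 calls, and 238 to 247 under the alternatives run for them. The 238 calls were those with total counts, where lost rises were partly offset by added falls. For example, up-regulated pentatricopeptide repeat genes went from 31 to 21, and down-regulated nitrate transporter and NPF genes from 9 to 12.

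Replicate numbers did not pair the samples, since same-numbered −N and +N libraries had correlations of their deviations of −0.0344, 0.00796 and −0.00216. The fit with a replicate block called 4327 genes (2761 up and 1566 down), passed 8794 interactions, and changed no call of a named gene. The 13386 genes without enough counts could not be tested at this depth, and a floor of 3 counts limits the folds of genes without a −N count.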
